A study of Mus musculus with 24 samples.

Results

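Paneth cells lie at the base of the crypts of the small intestine, next to the stem cells, and store antimicrobial proteins in large granules. Their best known products are lysozyme, which cuts bacterial cell walls, and the α-defensins, small cationic peptides with 6 cysteines that damage microbial membranes. In the mouse the α-defensins are made as inactive precursors that the metalloproteinase MMP7 cleaves, and other products include the ribonuclease ANG4 and the lectin ITLN1, which binds microbial glycans. Paneth cells are not a regular cell type of the mouse colon.

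The 10 genes described here are Lyz1, the 6 α-defensin genes Defa17, Defa21, Defa22, Defa24, Defa26 and Defa30, Mmp7, Ang4 and Itln1. They were taken as a fixed list of gene symbols, matched to 10 of the 45706 Ensembl identifiers in the count tables of the small intestine (SI) and the colon (COL). The sum of the 6 Defa genes is given beside the single genes, since several of them share much of their sequence. Organoids grown from mouse crypts carried a conditional BraffloxV600E allele, a Trp53 LSL-R172H allele or both, and are called BRAF, p53 and BRAFp53. All had Villin::CreERT2, a Cre recombinase that is active in intestinal epithelium after addition of tamoxifen, on a C57BL/6N background. The off state is thus one of normal BRAF protein and of no mutant p53. In p53 and BRAFp53 off, a STOP cassette keeps the LSL-R172H allele silent, so p53 comes from the other allele only, unlike in BRAF off. Induced organoids (on) received 4-hydroxytamoxifen (4-HT) for 24 h, at 0.5 µM in SI and 3.5 µM in COL, and non-induced organoids (off) received ethanol. RNA was taken on day 8 in SI and on day 3 in COL. By the methods of the study, the medium of colonic crypts also received Wnt3a and a GSK3 inhibitor. Tissue, 4-HT dose, day and medium thus cannot be told apart. There were 24 libraries in 12 groups of 2. The methods of the study name 3 donor mice, heterozygous for the alleles given, with 1 per genotype, so genotype and donor culture cannot be told apart, and p-values measure the spread between libraries of 1 culture, not between animals.

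Libraries held 44.4 M to 68.2 M counts in SI and 51.2 M to 78.2 M in COL, and the 10 genes made up 0.0179% to 0.0735% of the counts in SI and 0.0874% to 0.293% in COL. Levels are counts scaled to a library of 1000000 (CPM), with all 24 libraries set against each other by trimmed mean of M-values (TMM). A count of 3, taken as the limit of detection, was worth 0.0481 to 0.0878 CPM in SI and 0.0368 to 0.0572 CPM in COL, which covers counting error only. The labelled tissues were checked on regional genes. Car1, a carbonic anhydrase of the colon, had 1328 to 18013 CPM in COL and at most 12 counts in SI. Lct, the lactase of the small intestine, had 3.2 to 126 CPM in SI and at most 20 counts in COL. The COL BRAF culture stood apart, with 32.1 to 49.4 CPM of Gata4, a factor of the proximal intestine, against at most 2.67 CPM in the other COL libraries. It also had 84.3 to 90.4 CPM of Fabp1, a fatty acid binding protein of enterocytes, when off, against at most 0.58 CPM in the other COL cultures. Replicate 1 of SI BRAF on stood apart in Xist, at 17.1 CPM against 0.234 to 0.471 CPM in the other SI BRAF libraries and 115 to 166 CPM in SI p53 and BRAFp53. All COL libraries had at most 0.0395 CPM of Xist, which for p53 and BRAFp53 goes against a single mouse having supplied both tissues. Whether the library held RNA of another culture was not tested. Changes in SI BRAF are therefore also given without it, as medians of the lists and as some single values. Such a fit leaves a single library in the group. For the genes outside the list this was added after the data had been seen. The listed Paneth cell genes were detected in every library, and in COL too, where their summed level was 853 to 2652 CPM.

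The defensin genes cluster on chromosome 8 and carry most of the results, so the part of their coding sequence that encodes the mature peptide is shown. All 6 lie on the plus strand of GRCm38 (mm10) with 2 exons each: Defa21 (ENSMUSG00000074447) at chr8:21025545-21026516, Defa30 (ENSMUSG00000074444) at chr8:21134642-21135598, Defa22 (ENSMUSG00000074443) at chr8:21162277-21163249, Defa26 (ENSMUSG00000060070) at chr8:21618183-21618972, Defa17 (ENSMUSG00000060208) at chr8:21655780-21656735 and Defa24 (ENSMUSG00000064213) at chr8:21734494-21735471. The last 120 bases of each GENCODE M21 coding sequence are printed 5′ to 3′, and capitals mark the codons of the 6 cysteines.
Defa17: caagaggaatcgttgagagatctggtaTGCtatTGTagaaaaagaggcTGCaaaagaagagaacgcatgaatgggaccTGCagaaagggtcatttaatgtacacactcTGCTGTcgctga
Defa24: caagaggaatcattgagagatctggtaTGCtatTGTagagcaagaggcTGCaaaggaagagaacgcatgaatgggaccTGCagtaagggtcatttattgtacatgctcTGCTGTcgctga
Defa26: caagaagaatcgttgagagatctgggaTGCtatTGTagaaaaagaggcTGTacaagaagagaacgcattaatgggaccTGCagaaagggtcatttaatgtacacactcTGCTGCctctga
Defa30: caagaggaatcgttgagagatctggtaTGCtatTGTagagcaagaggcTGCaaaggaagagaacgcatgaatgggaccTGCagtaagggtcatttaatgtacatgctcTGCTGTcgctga
Defa21: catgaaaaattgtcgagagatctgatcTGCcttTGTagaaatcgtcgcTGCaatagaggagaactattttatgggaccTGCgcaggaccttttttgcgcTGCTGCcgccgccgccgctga
Defa22: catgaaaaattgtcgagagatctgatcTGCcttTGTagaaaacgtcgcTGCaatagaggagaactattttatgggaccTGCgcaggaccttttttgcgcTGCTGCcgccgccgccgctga

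The sequences fell into a pair and a group of 4. Defa21 and Defa22 were 99.3% identical over the coding sequence, Defa17, Defa24, Defa26 and Defa30 were 89.4% to 98.6% identical to each other, and identity between the pair and the 4 was 80.8% to 82.8%. How far a read can be placed on 1 gene differed with them. All 100-base stretches of Defa24 were found in no other annotated transcript, and 98.9% of those of Defa26 and 99.7% of those of Defa30. Of the 100-base stretches of Defa21 and Defa22, 59.6% and 59.7% were found in no other gene, and the pair shared the remainder, so these genes are also given as their sum. In Defa17, 9.4% of the 100-base stretches were unique, and it shared 90.6% with Defa3, which held 2 to 124 counts per library, so the split between those genes is uncertain. The other members were less exposed: 97.9% of the 100-base stretches of Lyz1 and 100% of those of Mmp7, Ang4 and Itln1 were unique. Lyz2, the macrophage lysozyme close in sequence to Lyz1, held 0 to 14 counts per SI library and 0 to 91 per COL library.

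The 3 defensin genes with a RefSeq promoter entry (GRCm38.p6) are shown next, since Defa21 and Defa22 had the largest falls of the 10 genes in SI BRAF and Defa30 did not fall as far. The sequences are the 150 bases before the start on the plus strand, and capitals mark TCF-type motifs, searched as CTTTG followed by 2 bases that are each A or T, on both strands over 250 bases. Defa21 and Defa22 (chr8:21162127-21162276) were identical over those 250 bases, with 2 matches each, and Defa30 held 1 match. Lyz1, Itln1 and Ang4 held 0, and Mmp7 held 0 in the window of 1 annotated start and 1 in that of another. Of 32851 RefSeq windows of that length, 14.8% held at least 1 match and 1.43% held at least 2. A match is a run of letters and not a measured binding site.
Defa21, chr8:21025395-21025544: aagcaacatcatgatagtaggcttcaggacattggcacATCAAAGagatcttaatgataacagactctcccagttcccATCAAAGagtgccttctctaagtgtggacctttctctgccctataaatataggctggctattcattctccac
Defa30, chr8:21134500-21134649: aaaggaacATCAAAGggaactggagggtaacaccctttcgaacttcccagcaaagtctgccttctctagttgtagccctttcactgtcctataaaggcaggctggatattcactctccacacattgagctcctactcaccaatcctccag

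Induction of BRAFV600E alone lowered most of the listed genes in SI organoids. In the SI BRAF culture 8 of the 10 genes were lower in the on state and none was higher (edgeR, adjusted p under 0.05), where 14.2% of the 16856 genes tested were called lower and 17.5% higher. The 2 genes that did not pass were Mmp7 and Ang4. The median log2 fold change of the 10 genes was -1.64, against -0.06 over all genes tested. In these bulk libraries, fewer Paneth cells and less of each RNA per Paneth cell cannot be told apart.

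Lyz1, the granule lysozyme (ENSMUSG00000069515, chr10:117287797-117292868, minus strand, 4 exons), stood at 152 and 137 CPM in the off libraries of SI BRAF and at 58.7 and 41.2 CPM in the on libraries. The groups did not overlap. The share of all genes without overlap between 2 and 2 libraries was not counted, so overlap is only a description here and below. Lyz1 fell by 1.58 on the log2 scale (SE 0.22, edgeR adjusted p = 0.000115). Itln1, the lectin (ENSMUSG00000038209, chr1:171518122-171535294, minus strand, 10 exons), had 194 and 228 CPM off against 74.7 and 59.2 CPM on. It fell by 1.70 on the log2 scale (SE 0.17, edgeR adjusted p = 7.91e-06), again with no overlap between the states.

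The 6 Defa genes together went from 403 and 350 CPM off to 121 and 122 CPM on in SI BRAF, a 3.15-fold lower level (log2 fold change -1.66, SE 0.16, edgeR adjusted p = 6.68e-06). All 6 were called lower, but by unequal amounts. Defa24, the most abundant of them, had 204 and 182 CPM off and 82.9 CPM in both on libraries (log2 fold change -1.26, SE 0.17, edgeR adjusted p = 9.25e-05). Defa17 was of similar response, at 39.2 and 36.1 CPM off and 14.4 and 16.2 CPM on (log2 fold change -1.35, SE 0.18, edgeR adjusted p = 0.000102). Defa30, whose coding sequence is 98.6% identical to that of Defa24, fell further, from 101 and 79.9 CPM to 18.9 and 18.3 CPM (5.02-fold lower, log2 fold change -2.33, SE 0.17, edgeR adjusted p = 4.91e-07). Defa26 was the least abundant, with 4.56 and 4.31 CPM off and 0.868 and 1.26 CPM on (log2 fold change -2.11, SE 0.48, edgeR adjusted p = 0.00456). The on libraries of Defa24, Defa17, Defa30 and Defa26 thus all lay below the off libraries, which was not counted over all genes.

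Defa21 and Defa22, the near-identical pair, showed the largest falls of the 10 genes in SI BRAF. Defa21 had 23.3 and 18.3 CPM off and 1.54 and 0.849 CPM on, 17.7-fold lower (log2 fold change -4.15, SE 0.43, edgeR adjusted p = 1.21e-05). Defa22 had 30.6 and 29.0 CPM off and 2.45 and 2.19 CPM on, 13.2-fold lower (log2 fold change -3.72, SE 0.28, edgeR adjusted p = 6.88e-07). Summed over the pair, which does not depend on how reads were split between them, the levels were 54.0 and 47.3 CPM off and 3.98 and 3.04 CPM on. In the off libraries the pair supplied 13.4% and 13.5% of the counts of the 6 genes, and in the on libraries 3.29% and 2.5%.

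Mmp7, the enzyme that activates the defensin precursors (ENSMUSG00000018623, chr9:7692090-7699585, plus strand, 6 exons), had 6.37 and 5.87 CPM off and 5.03 and 6.88 CPM on in SI BRAF. The on libraries enclosed the off libraries, and the log2 fold change was -0.09 (SE 0.26, edgeR adjusted p = 0.84). Ang4, the microbicidal ribonuclease (ENSMUSG00000060615, chr14:51763878-51773590, minus strand, 2 exons), had 6.30 and 5.15 CPM off and 4.05 and 3.69 CPM on (log2 fold change -0.61, SE 0.34, edgeR adjusted p = 0.202). Its groups did not overlap, but the difference did not pass the test. Without the on library that stood apart in Xist, the 8 genes called lower had log2 fold changes from -1.26 for Defa17 and Defa24 to -4.65 for Defa21. The Defa sum then fell by 1.67 on the log2 scale.

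**Figure D1:**
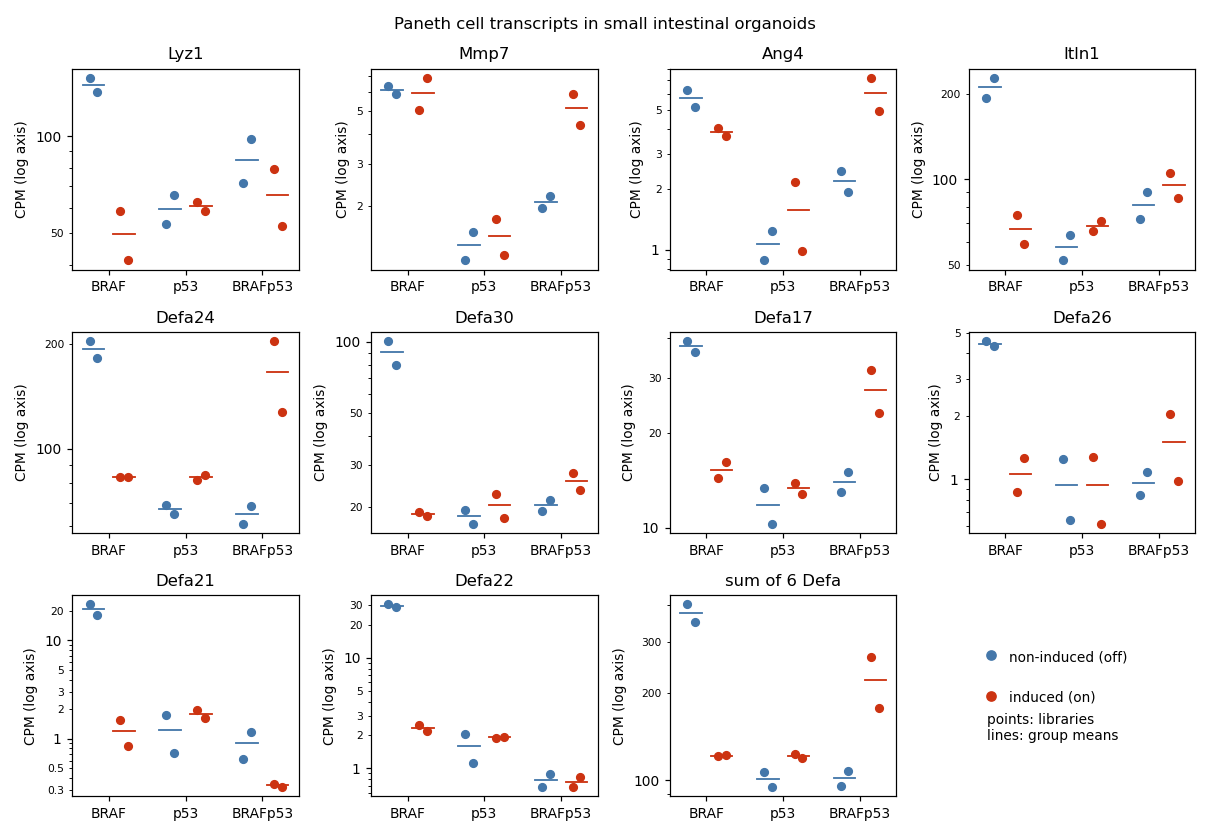
Level of each listed gene and of the sum of the 6 Defa genes in the 12 SI libraries, in CPM on a log axis, with 1 point per library, off and on side by side within BRAF, p53 and BRAFp53 and a bar at the mean of the 2 libraries. The off libraries of BRAF are the highest for every defensin except Defa24 and for the Defa sum at 350 and 403 CPM, and both BRAFp53 on libraries are above the off libraries for Mmp7, Ang4, Defa17 and Defa24.

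With both oncogenes the listed genes did not fall together. In SI BRAFp53 organoids 4 of the 10 genes were higher in the on state and none was lower (edgeR), where 6.98% of the 16856 genes were called higher and 4.53% lower. The 4 were Mmp7, Ang4, Defa17 and Defa24. The median log2 fold change of the 10 was 0.45, against -0.03 over all genes.

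Defa24 had 61.0 and 68.8 CPM off and 204 and 128 CPM on in SI BRAFp53, the largest rise among the defensins (log2 fold change 1.31, SE 0.17, edgeR adjusted p = 0.000213). Defa17 had 13.0 and 15 CPM off and 31.8 and 23.1 CPM on (log2 fold change 0.93, SE 0.18, edgeR adjusted p = 0.00429). The sum of the 6 Defa genes followed its main contributor, at 95.4 and 108 CPM off and 266 and 177 CPM on, 2.12-fold higher (log2 fold change 1.08, SE 0.16, edgeR adjusted p = 0.000622). These 3 measures were all higher in the on libraries than in the off libraries, and replicate 1 of the on state was the highest. Defa30, the close relative of Defa24, was not called: it had 19.2 and 21.4 CPM off and 27.7 and 23.5 CPM on (log2 fold change 0.29, SE 0.16, edgeR adjusted p = 0.292). Its on libraries both lay above its off libraries.

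Defa21 had 0.625 and 1.18 CPM off and 0.350 and 0.323 CPM on in SI BRAFp53 (log2 fold change -1.46, SE 0.49, edgeR adjusted p = 0.0728). The difference did not pass the main test, but was called lower by DESeq2 and by edgeR without the filter on low counts. Defa22 had 0.684 and 0.891 CPM off and 0.679 and 0.833 CPM on (log2 fold change -0.09, SE 0.31, edgeR adjusted p = 0.903). Each gene of the pair was thus at most 1.18 CPM in this culture in either state. Defa26, at 0.84 and 1.08 CPM off and 2.04 and 0.986 CPM on, overlapped between the states (log2 fold change 0.60, SE 0.47, edgeR adjusted p = 0.496).

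Mmp7 had 1.97 and 2.21 CPM off and 5.91 and 4.39 CPM on in SI BRAFp53 (log2 fold change 1.26, SE 0.27, edgeR adjusted p = 0.00916). Ang4 had 2.48 and 1.94 CPM off and 7.22 and 4.90 CPM on (log2 fold change 1.42, SE 0.35, edgeR adjusted p = 0.0182). The on libraries of both genes were above the off libraries, and lay around the level of the SI BRAF off libraries (5.15 to 6.37 CPM over both genes). Lyz1 overlapped between the states, at 71.4 and 97.9 CPM off and 79.0 and 52.7 CPM on (log2 fold change -0.40, SE 0.21, edgeR adjusted p = 0.265). Itln1 also overlapped, at 72.3 and 90.3 CPM off and 105 and 85.7 CPM on (log2 fold change 0.19, SE 0.16, edgeR adjusted p = 0.548). The count of 4 rested on single libraries: it was 1 without replicate 1 of the off state or without replicate 1 of the on state, 3 without replicate 2 of the off state and 4 without replicate 2 of the on state.

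The responses of the BRAFp53 and BRAF cultures were compared directly. In SI all 10 listed genes had a higher on versus off change in BRAFp53 than in BRAF (edgeR, contrast of the changes), where 1.93% of genes were called higher and 6.28% lower, and the median difference was 2.43 on the log2 scale against 0.03 over all genes. The difference was largest for Defa22, at 3.63 (SE 0.41, edgeR adjusted p = 0.000204), and smallest for Lyz1, at 1.17 (SE 0.30, edgeR adjusted p = 0.0294). For the Defa sum it was 2.74 (SE 0.23, edgeR adjusted p = 2.62e-05). For Mmp7 and Ang4 it was 1.35 (SE 0.38, edgeR adjusted p = 0.0464) and 2.02 (SE 0.49, edgeR adjusted p = 0.0222). The calls for Lyz1, Mmp7, Ang4, Defa21 and Defa26 were each lost when some single library was left out, that for Mmp7 in 7 of the 8 such fits (edgeR adjusted p up to 0.168), and between 5 and 8 genes were called over these fits. Without the library that stood apart in Xist, the median difference of the 10 genes was 2.34. The cultures also differed in level before induction, which enters this comparison, and those levels are given next.

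**Figure D2:**
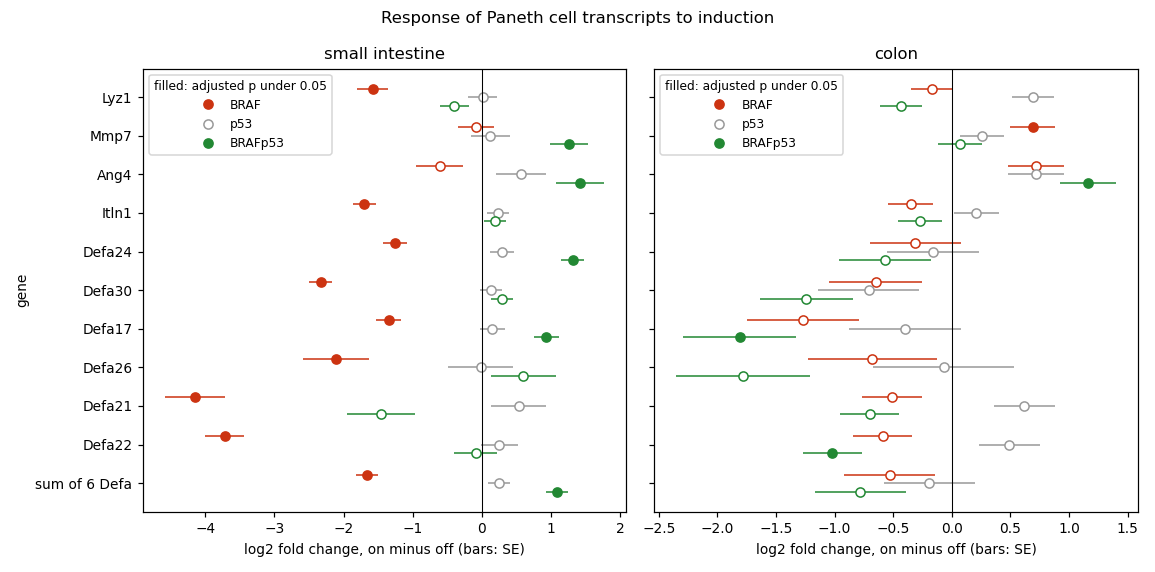
On versus off log2 fold change of each listed gene and of the Defa sum in SI and in COL, with 1 point and standard error bar per genotype; filled points passed the test (edgeR adjusted p under 0.05) and open points did not. In SI BRAF the points of 8 genes and of the sum are filled and below 0, in SI BRAFp53 the points of Mmp7, Ang4, Defa17, Defa24 and the sum are filled and above 0, and in p53 all points are open.

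Before induction the SI BRAF culture held the highest levels of all 10 genes. Against it, all 10 were lower in SI p53 off, where 2.27% of genes were called lower and 3.87% higher, and all 10 were lower in SI BRAFp53 off, where 2.68% were called lower and 4.31% higher (edgeR). The Defa sum was 403 and 350 CPM in BRAF off, 107 and 94.8 CPM in p53 off and 95.4 and 108 CPM in BRAFp53 off. Against BRAF it differed by -1.91 on the log2 scale in p53 (SE 0.16, edgeR adjusted p = 1.48e-05), and the difference was -1.89 in BRAFp53 (SE 0.16, edgeR adjusted p = 1.32e-05). The difference was uneven between the defensins, as it was for induction: it was -5.25 for Defa22 between BRAFp53 and BRAF, or 38-fold (SE 0.30, edgeR adjusted p = 3.18e-07), and -1.58 for Defa24. For Lyz1 it was -0.78 (edgeR adjusted p = 0.0404), a call that was lost without replicate 1 or replicate 2 of BRAF off or without replicate 1 of BRAFp53 off. The calls for Ang4 and Defa26 in the same comparison were lost without any of the 4 libraries, so that 7 or 8 genes were called in each such fit. The call for Defa26 between p53 and BRAF was lost without either BRAF off library or without replicate 2 of p53 off. Between BRAFp53 off and p53 off, none of the 10 was called by edgeR and 4 had an unadjusted p under 0.05, where 0.101% of genes were called higher and 0.19% lower and 6.36% had an unadjusted p under 0.05. Each culture came from 1 donor, so these differences cannot be told apart from differences between animals, and BRAF was also the SI culture with low Xist. It was the only SI culture without the silent Trp53 allele as well, and the part of that allele was not tested.

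Ordered by mean, the Defa sum in SI was 101 ± 8.49 CPM (SD, n = 2) in p53 off, 102 ± 9.22 in BRAFp53 off, 121 ± 0.434 in BRAF on, 121 ± 2.86 in p53 on, 221 ± 63.3 in BRAFp53 on and 376 ± 37.8 in BRAF off. The libraries of the lowest pair of groups overlapped with each other, as did those of BRAF on and p53 on. The induced BRAF culture thus reached a level close to that of the induced p53 culture. Lyz1 had another order, from 50 ± 12.4 CPM in BRAF on through 59.6 ± 8.88 and 60.6 ± 2.81 in p53 off and on, 65.8 ± 18.6 in BRAFp53 on and 84.7 ± 18.7 in BRAFp53 off to 145 ± 10.6 in BRAF off. The first 5 of these groups overlapped with their neighbours in the order.

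In SI p53 organoids none of the 10 genes was called (edgeR), none had an unadjusted p under 0.05, and DESeq2 called none. Of the 16856 genes tested, 0% were called in either direction and 873 had an unadjusted p under 0.05. Lyz1 had 53.3 and 65.9 CPM off and 62.6 and 58.6 CPM on. The Defa sum had 107 and 94.8 CPM off and 123 and 119 CPM on (log2 fold change 0.25, SE 0.16, edgeR adjusted p = 1). Across the 10 genes the log2 fold change lay between -0.02 and 0.56. The recombination of the p53 allele alone was thus accompanied by no difference detectable with 2 libraries per state.

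The makeup of the defensin counts differed between cultures, with the placement of reads on Defa17 uncertain as given above. Defa24 supplied 50.6% to 76.5% of the counts of the 6 genes over the 12 SI libraries, Defa30 10.4% to 25.1%, Defa17 9.72% to 13.8% and Defa26 0.516% to 1.23%. Defa21 and Defa22 together supplied between 0.387% and 13.5%, and only the BRAF off libraries were above 4%. In SI BRAF their share was 13.4% and 13.5% off (2331 of 17416 and 2711 of 20031 counts). In SI BRAFp53 it was 1.37% and 1.91% off (67 of 4880 and 107 of 5597 counts) and 0.387% and 0.654% on (50 of 12935 and 68 of 10393 counts). In COL, Defa24 supplied 57% to 85.2% and the pair 1.47% to 6.71%.

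**Figure D3:**
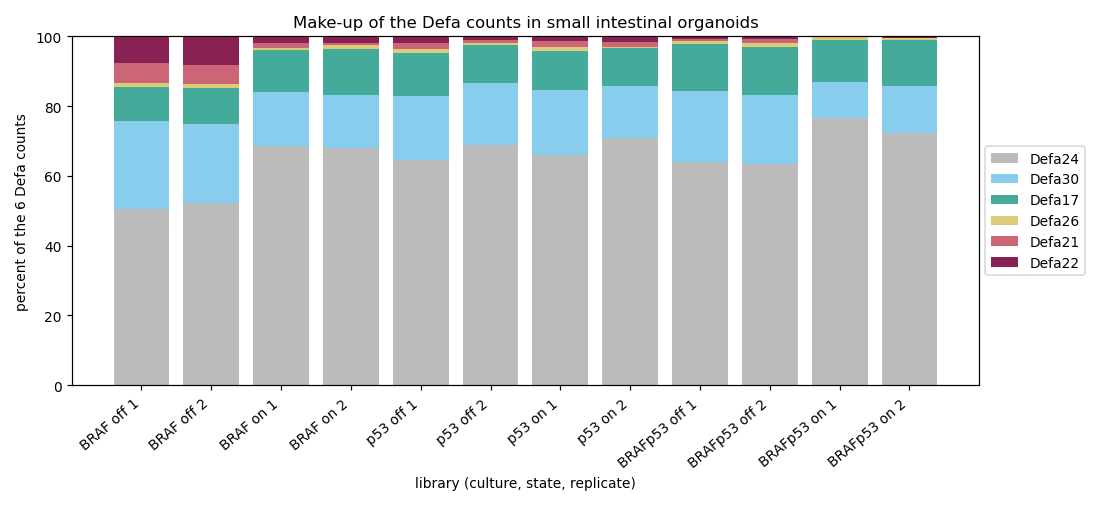
Share of the counts of the 6 listed Defa genes supplied by each gene, in percent, with 1 stacked bar from 0 to 100 for each of the 12 SI libraries. Defa24 is the largest segment in every bar, and Defa21 and Defa22 together take 13.4% and 13.5% in SI BRAF off and under 4% in the other bars.

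The other annotated α-defensin genes were few in counts. Of 33 further symbols that start with Defa, 17 of them pseudogenes, 22 had counts, and together they held 0.6% to 5.49% of the counts of the family. In SI BRAF 7 of the 12 that could be tested were called lower and 0 higher, in SI BRAFp53 0 were called either way, and the difference of the responses was called higher for 3. Over all genes the shares were 14.2% lower and 17.5% higher in SI BRAF, 6.98% higher and 4.53% lower in SI BRAFp53, and 1.93% higher for the difference. Without the library that stood apart in Xist, the median log2 fold change of the 12 was -2.97 in SI BRAF, and several of the 7 calls were lost. Defa29, the most abundant of them, had 10.8 and 9.6 CPM in SI BRAF off and 0.623 and 0.0293 CPM on (log2 fold change -4.90, SE 0.63, edgeR adjusted p = 7.26e-05). Its second on library held 1 count and was below the limit of detection, and without the other on library, which stood apart in Xist, the log2 fold change was -8.37 and rested on that count. Defa3 had 2.38 and 2.16 CPM off and 0.378 and 0.439 CPM on (log2 fold change -2.52, edgeR adjusted p = 0.00159), and shares most of its sequence with Defa17. Defa5 had 3.24 and 2.32 CPM off and 0.512 and 0.293 CPM on (log2 fold change -2.81, edgeR adjusted p = 0.00213). Adding all of these to the 6 listed genes left the sum at a log2 fold change of -1.71 in SI BRAF and 1.07 in SI BRAFp53.

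The related ribonuclease Ang, which shared no 100-base stretch with Ang4, had 7.25 to 23.7 CPM in SI and was lower in SI BRAF (log2 fold change -0.61, SE 0.19, edgeR adjusted p = 0.0262). Its log2 fold change in SI BRAFp53 was -0.39 (edgeR adjusted p = 0.221), where Ang4 rose.

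Colon organoids held the listed genes at levels that overlapped with those of SI or lay above them. The question of this comparison was whether organoids of the tissues differ before induction, with the 2 off libraries of a culture summed and 3 SI cultures set against 3 COL cultures. The Xist level separated SI p53 and BRAFp53 from all COL cultures, and its part in the comparison was not tested. Medium and RNA day differed between the tissues too, and their part was not tested either. Lyz1, Mmp7 and Ang4 were lower in SI than in COL, where 17% of the 17789 genes tested were called lower and 12.6% higher (edgeR). Mmp7 had 1.19 to 6.37 CPM in SI off and 108 to 142 CPM in COL off (log2 fold change -5.34, SE 0.59, edgeR adjusted p = 0.00207). Ang4 had 0.882 to 6.30 CPM in SI off and 30.3 to 90.6 CPM in COL off (log2 fold change -4.18, SE 0.67, edgeR adjusted p = 0.00552). Lyz1 had 53.3 to 152 CPM in SI off and 261 to 1245 CPM in COL off (log2 fold change -3.01, SE 0.57, edgeR adjusted p = 0.00949). The tissues did not overlap in any of the 3 genes, and the share of all genes without overlap was not counted. The Defa sum, at 94.8 to 403 CPM in SI off and 102 to 502 CPM in COL off, overlapped between the tissues (log2 fold change -0.59, SE 0.62, edgeR adjusted p = 0.506). That value ran from -1.50 to -0.13 when 1 culture was left out. In the same comparison 9 of 10 enterocyte markers were higher in SI and 0 lower. Of goblet cell markers 7 of 10 were lower and 0 higher, of stem cell markers 6 of 8 lower and 1 higher. Of tuft cell markers 3 of 4 were lower and 0 higher. The part of these cells was not tested.

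Levels of different genes are given next per kilobase of transcript, which corrects for length only. Reads of shared sequence are not corrected for: 9.4% of the 100-base stretches of Defa17 were unique, against 100% of those of Defa24. Defa21 and Defa22 are limited in the same way. In SI BRAF off the order ran from Defa24 at 461 CPM per kb through Defa30 at 228, Itln1 at 185, Lyz1 at 115 and Defa17 at 94.8 to Ang4 at 8.07 and Mmp7 at 5.73. Defa24 also led in the other SI cultures, at 160 CPM per kb in p53 off and 155 in BRAFp53 off. In COL BRAF off Defa24 again led, at 395 CPM per kb, before Lyz1 at 215, Itln1 at 173, Defa17 at 150 and Mmp7 at 128. In the other COL cultures Lyz1 led, at 755 CPM per kb against 259 for Defa24 in p53 off, and at 833 against 734 in BRAFp53 off.

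**Figure D4:**
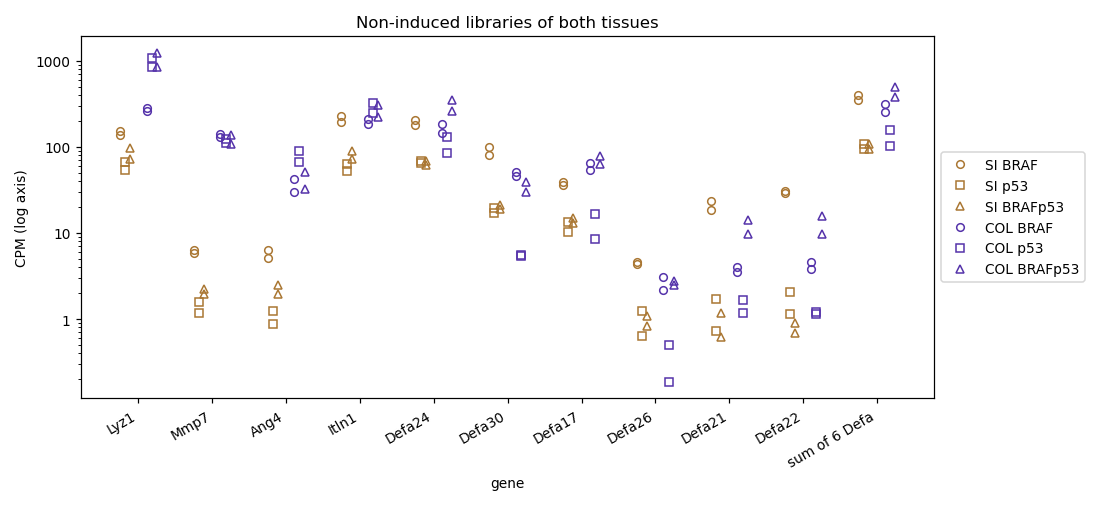
Levels of the listed genes and of the Defa sum in the non-induced libraries of the 3 SI and 3 COL cultures, in CPM on a log axis, with 1 point per library. The COL points of Lyz1, Mmp7 and Ang4 all lie above the SI points (for Mmp7, 108 to 142 CPM against 1.19 to 6.37 CPM), and those of the Defa sum overlap.

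In COL, induction was followed by calls for single listed genes. In COL BRAF 1 of 10 was called higher and 0 lower (edgeR), where 10.3% of the 18972 genes tested were called higher and 9.61% lower. The gene was Mmp7, at 142 and 132 CPM off and 218 and 223 CPM on (log2 fold change 0.69, SE 0.19, edgeR adjusted p = 0.0229). Its call was lost when any of the 4 libraries of COL BRAF was left out. Ang4 had 42.7 and 30.3 CPM off and 64.9 and 55.3 CPM on (log2 fold change 0.72, SE 0.24, edgeR adjusted p = 0.0575). Lyz1, at 283 and 261 CPM off and 255 and 229 CPM on, had a log2 fold change of -0.17 (edgeR adjusted p = 0.569). The Defa sum had 314 and 253 CPM off and 191 and 201 CPM on (log2 fold change -0.53, SE 0.39, edgeR adjusted p = 0.388). Its states did not overlap, but the difference did not pass the test.

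In COL p53 the induced libraries differed from each other: the Defa sum was 157 and 102 CPM off and 54.5 and 178 CPM on (log2 fold change -0.19, SE 0.39, edgeR adjusted p = 0.973). None of the 10 genes was called by edgeR, 3 had an unadjusted p under 0.05 and DESeq2 called 1. In this comparison edgeR called 0.0316% of genes higher and 0.111% lower, and 8.34% had an unadjusted p under 0.05. Lyz1 had 841 and 1067 CPM off and 1367 and 1754 CPM on, with no overlap, and a log2 fold change of 0.69 (SE 0.18, edgeR adjusted p = 0.208).

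In COL BRAFp53 1 gene was higher and 2 were lower, where 9.95% of genes were called higher and 7.76% lower (edgeR). Ang4 had 32.3 and 50.7 CPM off and 96.2 and 89.1 CPM on (log2 fold change 1.16, SE 0.24, edgeR adjusted p = 0.00677). Defa17 had 62.6 and 79.2 CPM off and 20.7 and 19.6 CPM on (log2 fold change -1.81, SE 0.48, edgeR adjusted p = 0.0237). Defa22 had 9.74 and 15.9 CPM off and 6.18 and 6.45 CPM on (log2 fold change -1.02, SE 0.25, edgeR adjusted p = 0.0148). Ang4 thus rose with both oncogenes in either tissue, and Defa17 rose in SI and fell in COL. Leaving out single libraries gave 0 or 1 higher and 0 to 4 lower. The calls for Defa17 and Defa22 were lost without replicate 2 of the off state and without either on library, and that for Ang4 without replicate 1 of the off state. The Defa sum had 378 and 502 CPM off and 257 and 255 CPM on (log2 fold change -0.78, SE 0.39, edgeR adjusted p = 0.194). The BRAFp53 and BRAF responses of COL differed for none of the 10 genes by edgeR (1 at an unadjusted p under 0.05, 0 by DESeq2), where 0.532% of genes were called higher and 0.374% lower and 19% had an unadjusted p under 0.05.

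A single fit of all 24 libraries was used to set the SI responses against those of COL. For BRAF, 5 of 10 genes had a lower on versus off change in SI than in COL, where 3.31% of the 19673 genes tested were called lower and 7.4% higher (edgeR). They were Lyz1, Itln1, Defa21, Defa22 and Defa30, with Defa21 at -3.60 (SE 0.52, edgeR adjusted p = 0.000173) and Lyz1 at -1.36 (SE 0.31, edgeR adjusted p = 0.00755). The call for Defa30 (-1.64, edgeR adjusted p = 0.0329) was lost when any of the 8 libraries involved was left out. Without the library that stood apart in Xist, the median difference of the 10 genes was -1.42. For the Defa sum the difference was -1.11 (SE 0.47, edgeR adjusted p = 0.15). The COL BRAF culture, the COL side of these differences, stood apart from the other COL cultures in Gata4 and Fabp1. For BRAFp53, 3 genes had a higher change in SI, where 2.13% of genes were called higher and 1.39% lower: Mmp7 by 1.23 (SE 0.31, edgeR adjusted p = 0.0363), Defa17 by 2.78 (SE 0.58, edgeR adjusted p = 0.011) and Defa24 by 1.92 (SE 0.49, edgeR adjusted p = 0.0332). The Defa sum differed by 1.83 (SE 0.47, edgeR adjusted p = 0.035). The count of 3 was 0 without replicate 1 of SI BRAFp53 off and 1 without replicate 2 of SI BRAFp53 off, replicate 1 of SI BRAFp53 on, replicate 2 of COL BRAFp53 off or either library of COL BRAFp53 on. The call for the Defa sum was lost without each of the same 6 libraries (edgeR adjusted p up to 0.124).

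Regulators of the Paneth cell were examined as a fixed list of 14 transcription and secretory factors. In SI BRAF 3 were higher and 3 lower (median log2 fold change -0.41), in SI BRAFp53 3 were higher and 1 lower (median 0.51), and 6 had a higher change in BRAFp53 than in BRAF (median difference 1.21). Over all genes, 17.5% were called higher and 14.2% lower in SI BRAF, 6.98% and 4.53% in SI BRAFp53, and 1.93% had a higher change in BRAFp53. Without the library that stood apart in Xist, the median log2 fold change of the factors in SI BRAF was -0.20. Sox9, a Wnt target required for Paneth cells, had 46.2 and 49.1 CPM in SI BRAF off and 21.1 and 14.3 CPM on (log2 fold change -1.47, edgeR adjusted p = 5.78e-05), and its log2 fold change in SI BRAFp53 was -0.20 (edgeR adjusted p = 0.558). Spdef, a factor of goblet and Paneth cell maturation, had a log2 fold change of 0.01 in SI BRAF (edgeR adjusted p = 0.979). In SI BRAFp53 it rose from 4.16 and 5.27 CPM to 14.5 and 17.3 CPM (log2 fold change 1.72, edgeR adjusted p = 0.000102). Atoh1, the factor of the secretory lineage, had 3.94 and 5.24 CPM off and 2.72 and 2.69 CPM on in SI BRAF and 1.39 and 2.83 CPM off and 7.61 and 3.16 CPM on in SI BRAFp53. Neither change passed the test (edgeR adjusted p = 0.16 and 0.0615), but their difference did (2.12, edgeR adjusted p = 0.0434), except without the library that stood apart in Xist (2.13, edgeR adjusted p = 0.0561). Creb3l1, a factor of secretory cells, rose in both (log2 fold change 1.23 and 2.36, edgeR adjusted p = 0.000449 and 1e-05).

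**Figure D5:**
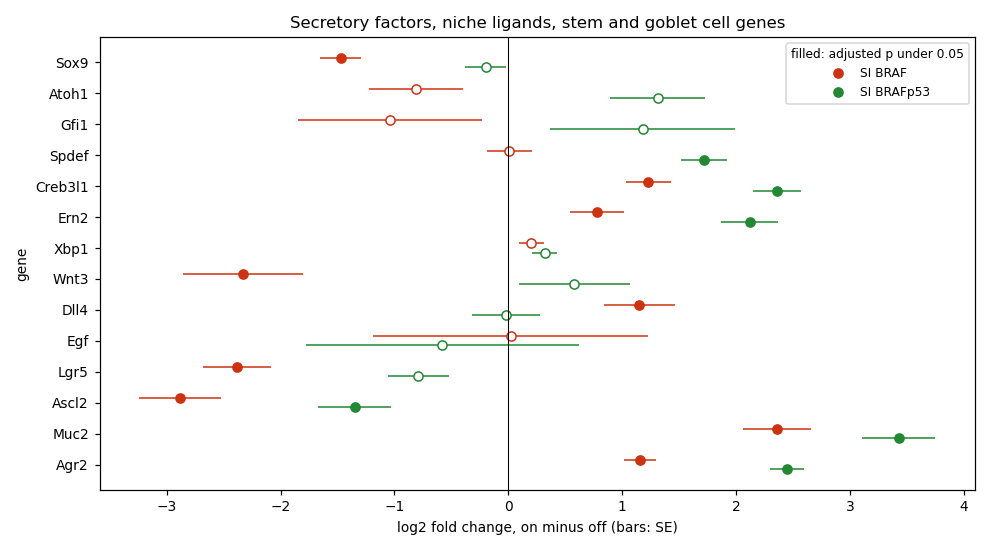
On versus off log2 fold change of 14 named secretory factors, niche ligands and stem and goblet cell genes in SI BRAF and SI BRAFp53, with 1 point and standard error bar each; filled points passed the test (edgeR adjusted p under 0.05) and open points did not. Sox9, Wnt3 and Lgr5 are filled and below 0 in BRAF only (-1.47, -2.33 and -2.38). Dll4 is filled and above 0 in BRAF only (1.15), and Spdef is filled in BRAFp53 only (1.72). Muc2 is filled and above 0 in both (2.36 and 3.43).

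Paneth cells also supply growth factors to the stem cells. Of 10 niche ligands, 9 could be tested in SI. In BRAF 4 were higher and 1 was lower (median log2 fold change 0.52), and in BRAFp53 4 were higher and 0 lower (median 0.64), against the same shares over all genes (17.5% and 14.2%, 6.98% and 4.53%). The 1 that fell in SI BRAF was Wnt3, the Wnt ligand of Paneth cells, at 3.47 and 5.05 CPM off and 1.38 and 0.322 CPM on (log2 fold change -2.33, edgeR adjusted p = 0.00455). In SI BRAFp53 it had 2.44 and 1.92 CPM off and 3.93 and 2.77 CPM on (log2 fold change 0.58, edgeR adjusted p = 0.535), and the responses differed by 2.91 (edgeR adjusted p = 0.0254). Without the library that stood apart in Xist, Wnt3 had a log2 fold change of -3.76 in SI BRAF and a difference of responses of 4.35. The median log2 fold change of the ligands in SI BRAF was then 0.54. Dll4, a Notch ligand of the list, rose in SI BRAF (log2 fold change 1.15, edgeR adjusted p = 0.0131), opposite to Wnt3. In SI BRAFp53 its log2 fold change was -0.02 (edgeR adjusted p = 0.988), and the responses differed by -1.17 (edgeR adjusted p = 0.129). The epidermal growth factor receptor ligand Areg rose in both, by 2.57 in BRAF (edgeR adjusted p = 1.05e-06) and 2.73 in BRAFp53 (edgeR adjusted p = 3.17e-06) on the log2 scale.

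A longer list held 21 further products named for Paneth cells, some of which other cell types share. Of the 18 tested, 4 were higher and 7 lower in SI BRAF (median log2 fold change -0.93), and 4 were higher and 2 lower in SI BRAFp53 (median 0.22). Over all genes 17.5% were higher and 14.2% lower in SI BRAF (median -0.06), and 6.98% and 4.53% in SI BRAFp53 (median -0.03). The summed level of the list went the other way from its median in SI BRAF, from 2346 to 2767 CPM off to 5151 to 5265 CPM on. In SI BRAFp53 it was 4863 to 4911 CPM off and 5294 to 5473 CPM on. Leaving out the library that stood apart in Xist, the median log2 fold change of the 19 then tested was -1.47 in SI BRAF. Reg3g, an antibacterial lectin also made by enterocytes, was lower in both: it had 502 and 319 CPM off and 137 and 118 CPM on in BRAF (log2 fold change -1.73, edgeR adjusted p = 0.000694). In BRAFp53 it had 415 and 277 CPM off and 125 and 76.1 CPM on (log2 fold change -1.82, edgeR adjusted p = 0.00144). The responses of Reg3g differed by -0.09 (edgeR adjusted p = 0.935). Clps, the pancreatic lipase cofactor, went with the granule genes, with a log2 fold change of -2.08 in BRAF (edgeR adjusted p = 0.000748), 0.55 in BRAFp53 (edgeR adjusted p = 0.329) and a difference of 2.64 (edgeR adjusted p = 0.0054). Pnliprp2, a lipase, rose in both (log2 fold change 3.80 and 3.21, edgeR adjusted p = 4.84e-08 and 5.18e-07).

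Markers of other epithelial cells moved in the same libraries, and their part in the results on the listed genes was not tested. The shares over all genes to set beside their counts are again 17.5% higher and 14.2% lower in SI BRAF and 6.98% higher and 4.53% lower in SI BRAFp53. In SI BRAF 10 of 10 enterocyte markers were higher, and their summed level went from 10951 to 14377 CPM off to 48196 to 54689 CPM on. All 8 stem cell markers were lower (657 to 699 CPM off, 141 to 294 CPM on), as were all 4 tuft cell markers (14.6 to 14.8 CPM off, 2.17 to 5.57 CPM on). Lgr5, the stem cell receptor, fell by 2.38 on the log2 scale (edgeR adjusted p = 6.03e-05), and by 2.97 without the library that stood apart in Xist. Of 10 goblet cell markers 4 were higher and 1 lower in SI BRAF (881 to 914 CPM off, 1472 to 1722 CPM on). In SI BRAFp53 9 of 10 goblet cell markers were higher (540 to 562 CPM off, 1780 to 1993 CPM on), among them Muc2, the main intestinal mucin (log2 fold change 3.43, edgeR adjusted p = 1.64e-05), and Agr2, its folding enzyme (log2 fold change 2.45, edgeR adjusted p = 5.59e-07). There 5 enterocyte markers were higher and 2 lower, and 1 stem cell marker was lower and 0 higher. Muc2 was also higher in SI BRAF (log2 fold change 2.36, edgeR adjusted p = 6.97e-05), where 8 of the 10 listed genes fell. Markers of stromal and immune cells, of which 4 of 10 could be tested, had 1 gene higher in SI BRAF and 2 in SI BRAFp53 and 0 lower, and summed to 2.09 to 20.5 CPM in SI, with Adgre1 at 0 counts and Ptprc at 25 counts or fewer in every library. Of 7 enteroendocrine markers 1 was higher in each of SI BRAF and SI BRAFp53 and 0 lower, and of 5 proliferation genes 2 were lower in SI BRAF and 0 were called in SI BRAFp53. Without the library that stood apart in Xist, the median log2 fold change in SI BRAF was 2.17 for enterocyte, -1.96 for stem and -3.23 for tuft cell markers. It was 0.56 for goblet cell markers and -1.08 for proliferation genes. None of these lists had a gene called by edgeR in SI p53. In COL the shares over all genes were 10.3% higher and 9.61% lower in BRAF, and 9.95% and 7.76% in BRAFp53. There 7 of 8 stem cell markers were lower and 0 higher in both, and 5 goblet cell markers were higher and 1 lower in both. Enterocyte markers had 3 higher and 3 lower in BRAF, and 2 and 3 in BRAFp53. Proliferation genes had 5 lower in BRAF and 2 in BRAFp53, and tuft cell markers 0 and 2, with 0 higher.

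The genes whose level over the 12 SI libraries was most like the mean of the 10 listed genes, each standardised on the log2 scale, were sought among 8363 genes of at least 10 CPM. Fam129b came closest (Pearson r = 0.858, 29.7 to 58.9 CPM), before Phf20l1 (0.856) and Kif21a (0.849). These values describe 12 libraries from 3 cultures, which share donor and handling within a culture.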

How the data were processed

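RNA sequencing was done on 24 mouse organoid libraries, paired-end, with 12 groups of 2. The authors deposited raw counts per gene, 1 table per tissue with replicates kept apart. Per the submitters' processing notes, Trimmomatic 0.36 trimmed the reads and STAR 2.5.2b was used, and builds mm9 and mm10 are listed; the study's methods give mm10. The use of strand and the annotation release were not given in the sources used here, so overlapping and near-identical genes may be counted differently under another scheme. Symbols came from GENCODE M21 (45143 of 45706 identifiers matched), promoters from RefSeq. There were 0 columns of no sample.

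Counts were filtered (filterByExpr), scaled by TMM and fitted with edgeR 4.0.16 (R 4.3.3) over the 12 libraries of a tissue by quasi-likelihood. Benjamini-Hochberg adjustment ran over all genes tested, with calls at an adjusted p under 0.05. The Defa sum replaced its 6 genes in a second fit. Contrasts between tissues used all 24 libraries. Levels are CPM on joint TMM factors. The scripts were tested on simulated data. Further tools were DESeq2 1.42.0, limma 3.58.1, Python 3.11.15, numpy 2.4.6, pandas 2.3.3, Biopython 1.88 and matplotlib 3.10.9. The alternatives were other size factors, filters and tests, library sizes without the listed genes, a fold threshold, a replicate block and leaving out each library.

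The members and lists were chosen with earlier results of these data known. The genes named are the listed ones, the 3 most abundant other Defa genes, close paralogues, fixed lists of Paneth cell products, factors, niche ligands and markers of other cell types, and the genes most like the mean of the 10 listed genes. Within a list, up to 4 called genes with the largest change and a few fixed ones could be named, and those shown were picked from these after their values were seen.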

Additional observations from a re-analysis of the deposited data

Results flagged for a closer look

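In SI the on versus off change on the log2 scale was higher (less negative or more positive) in BRAFp53 than in BRAF for all 10 listed genes, by the test of the difference itself (edgeR), where 1.93% of all genes were called higher. On the log2 scale the BRAFp53 change minus the BRAF change was 1.17 for Lyz1, 1.35 for Mmp7, 2.02 for Ang4, 1.89 for Itln1, 2.28 for Defa17, 2.68 for Defa21, 3.63 for Defa22, 2.58 for Defa24, 2.72 for Defa26, 2.62 for Defa30 and 2.74 for the Defa sum. The calls for Lyz1, Mmp7, Ang4, Defa21 and Defa26 were each lost without some single library, that for Mmp7 in 7 of 8 such fits, and those for Lyz1 and Mmp7 with the replicate block.

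The SI change minus the COL change differed for BRAF in 5 genes (edgeR), where 3.31% of all genes were called lower. It was -1.36 for Lyz1, -1.31 for Itln1, -3.60 for Defa21, -3.09 for Defa22 and -1.64 for Defa30, whose call was lost without any of the 8 libraries involved. For BRAFp53 the same difference was 1.23 for Mmp7, 2.78 for Defa17, 1.92 for Defa24 and 1.83 for the Defa sum (edgeR adjusted p = 0.0363, 0.011, 0.0332 and 0.035). Tissue, 4-HT dose, RNA day and medium cannot be told apart in these differences. The COL BRAF culture also stood apart from the other COL cultures in Gata4 and Fabp1.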

How the results depend on the processing

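In SI BRAF the count of 8 listed genes called lower was 8 in each of the 12 alternatives run, and over 946 settings of 81 results for single genes 831 kept direction and side of the threshold, 24 passed it, 87 no longer passed it and 4 changed sign; the cause was not tested. No filter on low counts gave 1 gene lower in SI BRAFp53, 2 higher and 3 lower in COL BRAF, 2 higher and 1 lower in COL p53, 6 lower in COL BRAFp53, 1 lower for the difference of the COL responses, 8 lower and 5 higher for the SI minus COL changes of BRAF and BRAFp53, and 2 higher for non-induced BRAFp53 minus p53. With it the Defa sum passed for COL BRAF (-0.55), COL BRAFp53 (-0.77) and the SI minus COL change of BRAF (-1.11). A minimum of 10 counts in every library gave 2 higher in COL BRAF, 4 lower in COL BRAFp53 and 5 higher for SI minus COL of BRAFp53. DESeq2 gave 1 lower in SI BRAFp53, 2 higher in COL BRAF, 1 higher in COL p53 and 5 higher for SI minus COL of BRAFp53, and limma-voom gave 1 lower in COL BRAF and 5 lower in COL BRAFp53. With limma-voom Defa21 no longer passed for the difference of the SI responses (adjusted p = 0.0569), nor Mmp7 for SI minus COL of BRAFp53 (adjusted p = 0.227). A fold rule of 1 on the log2 scale left 0 higher in COL BRAF. Same-numbered libraries deviated together by a correlation of -0.0675 to 0.0673 in the 6 cultures, so they share only a number. The replicate block gave 8 lower in SI BRAF, 4 higher in SI BRAFp53 and 8 higher for their difference. It gave 2 higher and 1 lower in COL BRAF, and with it Defa17 no longer passed in COL BRAFp53 (-1.80, edgeR adjusted p = 0.0511). It also gave 1 higher for SI minus COL of BRAFp53, where the Defa sum was 1.79 (edgeR adjusted p = 0.0913). Leaving out single libraries gave 1 to 4 higher in SI BRAFp53, 5 to 8 higher for the difference of the SI responses, 0 higher in COL BRAF, 0 to 1 lower in COL p53, 0 to 1 higher and 0 to 4 lower in COL BRAFp53, 0 to 3 higher for SI minus COL of BRAFp53, 7 to 8 lower for non-induced BRAFp53 minus BRAF, 9 to 10 for p53 minus BRAF and 3 to 5 for SI minus COL. The Defa sum then ranged from -1.27 to 0.42 in COL p53, from 1.51 to 2.16 for SI minus COL of BRAFp53 and from -0.09 to 0.12 for non-induced BRAFp53 minus p53. The log2 fold changes that changed sign then, none of them called, were that of Mmp7, on versus off, SI BRAF (-0.32 to 0.13), that of Mmp7, on versus off, COL BRAFp53 (-0.10 to 0.26) and that of Defa22, on versus off, SI BRAFp53 (-0.28 to 0.13). Where a library is left out, the remaining library of its group is assumed to vary like the other groups. The counts of this section stand without the share over all genes of each fit, so they show only how calls moved. Depth limits the least abundant defensins, Defa21, Defa22 and Defa26.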
